A study of Mus musculus with 6 samples.

Results

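Neuron and neural crest genes were followed across 6 arrays of whole mouse kidney taken at E13.5. The set was a fixed list of 32 genes, and all 32 were measured among the 18193 genes of the array. Each gene was read from the probe set with the highest mean log2 value over the 6 arrays, out of those annotated to that gene alone. The list was divided by role into 16 pan-neuronal genes, 10 sympathetic and peptide genes, and 6 glial and crest genes. The 3 control arrays, C1, C2 and C3, came from kidneys with both wild-type copies of Fz4 and no Fz8 (Fz4+/+Fz8-/-, called Fz8-null here). The other 3, M1, M2 and M3, came from kidneys without either receptor (Fz4-/-Fz8-/-, called double-null here). Both groups therefore lack Fz8, and no array of a kidney with Fz8 was analysed here. Both proteins belong to the Frizzled family, through which cells receive Wnt signals, and their genes are Fzd4 and Fzd8. All mice were hybrids of C57BL/6, 129X1/SvJ and 129S1/Sv, and the arrays were the Affymetrix MOE430.2 type, hybridized with biotinylated cRNA from 100 ng of starting RNA. The design text calls the 3 arrays of a genotype biological replicates, the labels give no batch, and whether kidneys of several embryos were pooled for an array is not said.

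Peripheral neurons, adrenal chromaffin cells and Schwann cells all descend from the neural crest. Sympathetic neurons are specified by Phox2 and Hand factors and make noradrenaline from tyrosine through the enzymes encoded by Th, Ddc and Dbh. Glial and Schwann cell precursors of the crest are marked by Sox10, Erbb3 and Foxd3. The cell bodies of the sympathetic neurons that innervate the kidney lie in ganglia outside the organ, and their axons enter it along the arteries. Several of the listed genes are also made by other cells, for instance Ddc by proximal tubule and Ednrb by endothelium and stroma.

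Across the list, none of the 32 genes passed the test between genotypes. The sympathetic core genes lay near background, and Syt1, Elavl3 and Snap25 were higher in M1 and M2 than in M3. Fabp7 lay higher and Erbb3 lower in all 3 double-null arrays. The limma adjusted p of the members ran from 0.299 to 0.981, with 0 of 32 called against 0.0275% of all genes. An unadjusted p under 0.05 was reached by 10 of the 32 (7 higher and 3 lower in double-null kidneys), against 15.3% of all genes (6.05% higher and 9.23% lower). No overlap between the genotypes was seen for 11 of 32 (8 higher, 3 lower), against 18.9% of all genes (6.68% higher, 12.2% lower). Without M3, 8 of the 32 were called, but so were 18.1% of all genes. With limma's array weights, 16 of 32 were called, against 41.6% of all genes. The median log2 difference of the members, double-null minus Fz8-null, was 0.19, against -0.061 over all genes; it was 0.34 without M1 and 0.12 without M2. The difference was above 0 for 25 of 32 members, against 41.9% of all genes, and for 20 of 32 after quantile normalization. Arrays of whole tissue cannot tell fewer cells of a type from less RNA per cell.

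**Figure D1:**
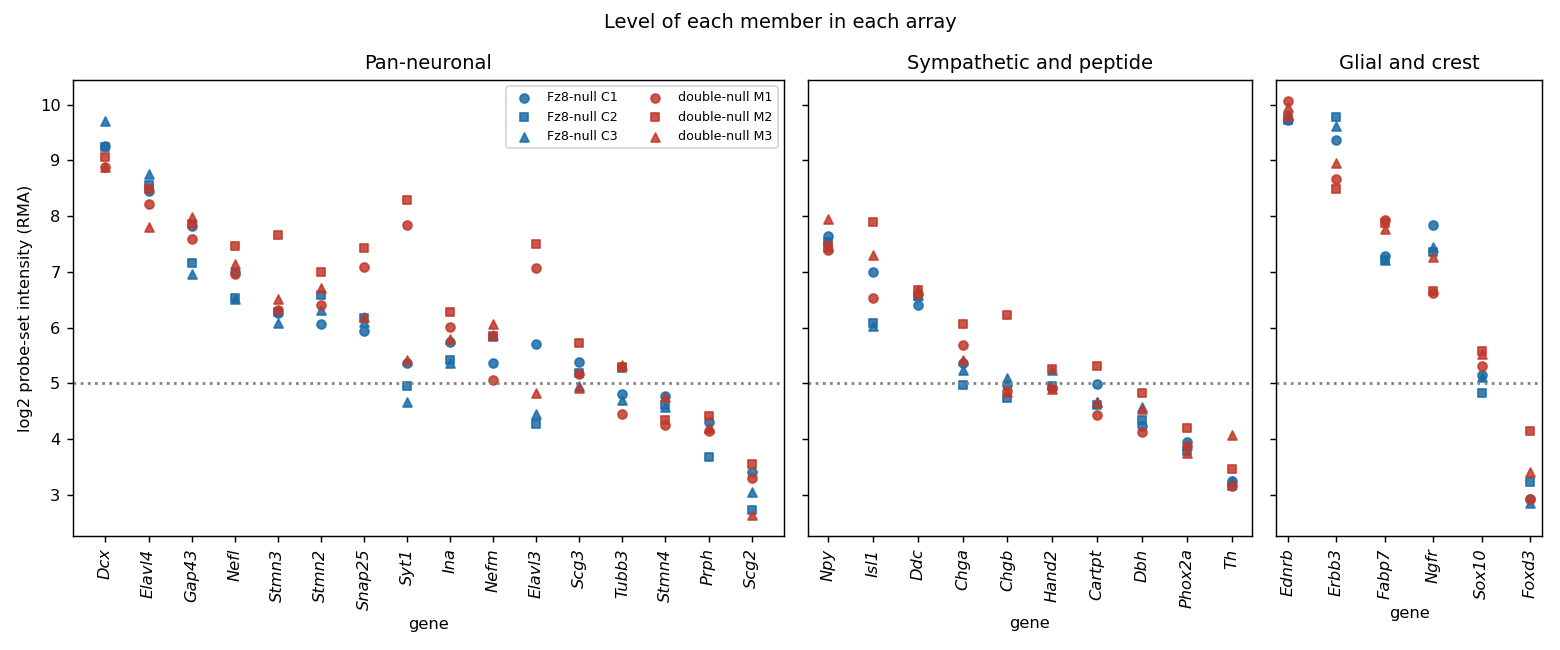
Log2 probe-set intensity (RMA) of the 32 members in each of 3 Fz8-null arrays (blue) and 3 double-null arrays (red), by role, with genes ordered by their mean; the dotted line marks a log2 value of 5, below which a mean was read as near background. In Syt1 and Elavl3 the arrays M1 and M2 stand well above the other 4, whereas in Erbb3 all 3 double-null arrays lie below every Fz8-null array.

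The 9 members with a mean under 5, a level read here as near background and held by 28.9% of all genes, were Tubb3, Stmn4, Prph, Scg2, Phox2a, Th, Dbh, Cartpt and Foxd3. None of these 9 separated the genotypes, and their median difference was 0.10, against 0.12 over all genes with a mean under 5. For the 23 members above that level the median was 0.38, against -0.14 over all genes with a mean of at least 5. These 23 include every member whose groups did not overlap. The cut was made on the mean of all 6 arrays, so it is not independent of the genotype difference. Syt1, Elavl3 and Chgb passed it only through the double-null arrays. Their Fz8-null means were 4.99, 4.81 and 4.94, and their double-null means 7.19, 6.47 and 5.31. The contrast between the 23 and the 9 is therefore made in part by the cut.

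Among the pan-neuronal genes, 12 of 16 lay higher in double-null kidneys (10 of 16 after quantile normalization) and the median difference was 0.29 (0.46 without M1 and 0.15 without M2). Synaptotagmin 1 (Syt1), the calcium sensor of synaptic vesicle release, had the largest difference of the 32 members. It read 5.36, 4.94 and 4.66 in C1, C2 and C3, and 7.85, 8.29 and 5.42 in M1, M2 and M3 (probe set 1438282_at). The double-null arrays were all above the Fz8-null ones, M1 and M2 by far and M3 by little. The difference was 2.20 (SE 0.71, limma's moderated standard error; adjusted p = 0.314), and it was 3.08 without M3 (adjusted p = 0.00302). Elavl3, a neuronal RNA-binding protein gene, read 5.71, 4.27 and 4.44 in C1 to C3 and 7.07, 7.51 and 4.82 in M1 to M3 (1435871_at). Its groups overlapped, since M3 lay below C1. Its difference was 1.66 (SE 0.73, adjusted p = 0.331), and without M3 it was 2.48 (adjusted p = 0.0153). Snap25, a membrane fusion protein gene of the synaptic terminal, read 5.94, 6.17 and 6.10 in C1 to C3 and 7.09, 7.43 and 6.19 in M1 to M3 (1416828_at). Here too M1 and M2 were high, and M3 lay just above C2. The Snap25 difference was 0.83 (SE 0.31, adjusted p = 0.315), and without M3 it was 1.19 (adjusted p = 0.00812).

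The probe sets of these genes did not all show the same pattern. The other 3 probe sets of Syt1 differed by 0.26 (1433884_at), 0.14 (1431191_a_at) and -0.07 (1421990_at), and the other 2 of Elavl3 by 0.42 (1455484_at) and 0.18 (1452524_a_at). In none of these 5 did M1 or M2 stand far from the remaining arrays. The Syt1 probe set 1438282_at had the highest mean only through M1 and M2. In C2, C3 and M3 the probe set 1433884_at was brighter, at 5.16, 5.05 and 5.71, against 4.94, 4.66 and 5.42. The further Snap25 probe set (1447763_at) was also highest in M1 and M2, at 6.95 and 7.05, and lay between 5.25 and 5.68 in the other 4 arrays. There M3 was the lowest of the 6, at 5.25, so the groups overlapped, unlike on the first probe set. Internexin alpha (Ina), a neuronal intermediate filament gene, read 5.75, 5.41 and 5.36 in C1 to C3 and 6.01, 6.27 and 5.80 in M1 to M3 (1418178_at), a difference of 0.52 (SE 0.18, adjusted p = 0.314). A less bright Ina probe set (1448991_a_at) read 4.85 and 5.27 in M1 and M2 and between 2.97 and 3.66 elsewhere. Of the 32 members, 18 had more than 1 probe set, and in 10 of these 18 every probe set had the sign of the representative one.

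The arrays M1 and M2 also gave the highest signal of the B1 repeat control on the array, a short interspersed repeat of the mouse genome. That control read 11.02, 10.67 and 10.73 in C1 to C3 and 11.83, 12.08 and 10.85 in M1 to M3. Its part in the neuronal differences was not tested. Its signal was also run as a covariate, an alternative chosen after seeing the data. Syt1, Snap25, Ina and Elavl3 were high in the same arrays as this control, so smaller differences follow from that choice. The Syt1 difference was then 0.39 (adjusted p = 0.982, 2.20 without the covariate) and that of Snap25 0.16 (adjusted p = 0.997, 0.83 without it). The Ina difference was 0.21 (adjusted p = 0.997, 0.52 without it), and Elavl3 turned to -0.19 (adjusted p = 0.997). Chga (0.53 in the main fit) and Fabp7 (0.62) were also high in M1 and M2. Over all alternatives, this covariate included, Chga went as low as 0.15, which is below the 0.16 of Snap25. Fabp7 stood no lower than 0.54. The 18S ribosomal RNA controls also moved with genotype, and in M3 too. The probe set for the 5′ part read 8.53, 7.59 and 7.84 in C1 to C3 and 9.88, 10.56 and 9.86 in M1 to M3, and that for the 3′ part read 8.14, 7.32 and 7.40 against 9.16, 9.64 and 9.25. Neither overlapped between genotypes, whereas the middle part did, at 11.23, 11.43 and 11.38 against 10.79, 11.12 and 11.87. The part of these controls in the differences of the members was not tested. M1 and M2 both stood above the other 4 arrays in 6 of the 32 members (Syt1, Elavl3, Snap25, Ina, Chga and Fabp7), a share near the 16.5% found over all genes.

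**Figure D2:**
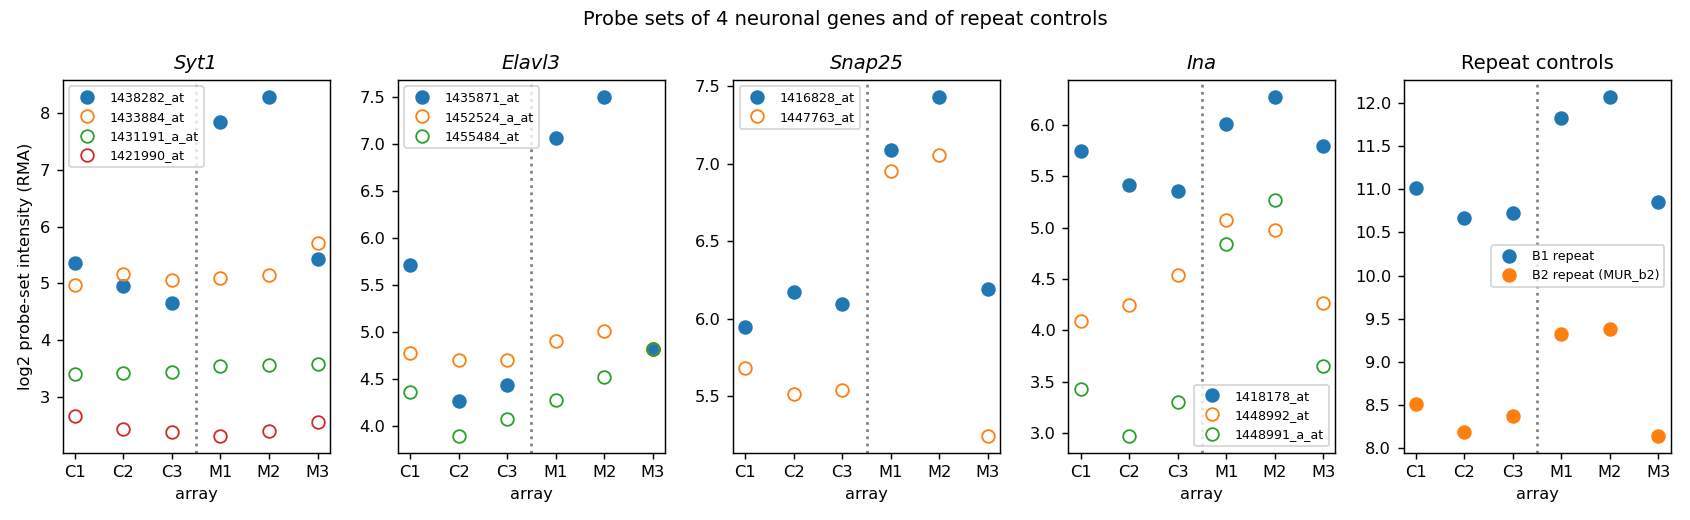
Log2 probe-set intensity (RMA) in each array for all probe sets of Syt1, Elavl3, Snap25 and Ina (filled, the representative probe set; open, the others) and for a B1 and a B2 repeat control; arrays left of the dotted line are Fz8-null and those right of it double-null. The brightest probe set of each gene and both repeat controls are highest in M1 and M2, while most other probe sets of Syt1 and Elavl3 are level.

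The upstream sequences of Syt1 and Elavl3 are shown because these genes had the largest differences. Both carry an E-box with the letters CAGCTG, the kind of site that proneural basic helix-loop-helix factors bind, which is printed in capitals. The sequences are from RefSeq (GRCm38.p6), 5′ to 3′ on the strand of the gene, which is the minus strand for both. That of Syt1 (chr10:109009112-109009212) lies before the start of one of its transcripts, and the Elavl3 stretch is chr9:22052024-22052124.
Syt1: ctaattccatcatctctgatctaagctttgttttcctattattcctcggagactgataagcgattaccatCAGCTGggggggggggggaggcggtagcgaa
Elavl3: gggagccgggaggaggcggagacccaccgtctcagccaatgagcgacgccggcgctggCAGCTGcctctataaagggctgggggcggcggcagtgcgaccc
In windows from 250 bases before to 50 bases after each start, this palindrome was found for 8 of the 24 members in the promoter table (33.3%) and for 18.3% of all genes in it. The 8 were Chga, Chgb, Elavl3, Elavl4, Ina, Isl1, Ngfr and Syt1. Of these, Elavl4 and Ngfr lay lower in double-null kidneys. The members are not random genes, and the share with this E-box was not tested.

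Axonal and cytoskeletal genes showed smaller differences. The light neurofilament gene Nefl read 6.99, 6.53 and 6.51 in C1 to C3 and 6.95, 7.47 and 7.15 in M1 to M3. C1 lay above M1, so the groups overlapped, and the difference was 0.51 (SE 0.20, adjusted p = 0.319), while a second Nefl probe set (1454672_at) stood at -0.11. The medium neurofilament gene Nefm stood at -0.026 (SE 0.28), a sign that turned with equal array medians. Gap43, a growth cone protein gene, read 7.83, 7.16 and 6.96 in C1 to C3 and 7.59, 7.85 and 7.99 in M1 to M3, a difference of 0.50 (SE 0.25, adjusted p = 0.354) with C1 inside the double-null range. The stathmins are regulators of microtubule stability. Stmn3 read between 6.09 and 6.29 in Fz8-null kidneys and 6.31, 7.65 and 6.51 in M1 to M3, so its groups did not overlap and M2 alone was far off. The Stmn3 difference was 0.61 (SE 0.34) and 0.20 without M2, and its other probe set (1460181_at) stood at -0.04. Stmn2 stood at 0.38 (SE 0.21) and Stmn4 at -0.21 (SE 0.17), both with overlapping groups.

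Doublecortin and Elavl4 went the other way. Doublecortin (Dcx), a microtubule-binding protein gene of young neurons, read 9.27, 9.24 and 9.70 in C1 to C3 and 8.88, 9.07 and 8.89 in M1 to M3 (1418141_at). All 3 double-null arrays lay below every Fz8-null array, by a difference of -0.45 (SE 0.17, adjusted p = 0.314). A second Dcx probe set (1418139_at) also separated the groups, at -0.67 (SE 0.22), and the 2 dim ones stood at 0.06 and -0.02. Elavl4, a neuronal RNA-binding protein gene like Elavl3, read 8.45, 8.55 and 8.75 in C1 to C3 and 8.22, 8.49 and 7.80 in M1 to M3. M2 overlapped the Fz8-null range, the difference was -0.41 (SE 0.20, adjusted p = 0.350), and both other probe sets of Elavl4 stood at -0.13. The neuron-specific tubulin gene Tubb3 was near background, between 4.70 and 5.27 in Fz8-null and between 4.44 and 5.33 in double-null kidneys. Tubb3 stood at 0.10 (SE 0.28), and its sign turned with quantile normalization. The remaining pan-neuronal genes were peripherin (Prph), an intermediate filament gene of peripheral neurons, at 0.20 (SE 0.20), and the granule protein genes Scg2 at 0.10 (SE 0.28) and Scg3 at 0.11 (SE 0.23), each with overlapping groups. The sign of Scg2 turned with quantile normalization.

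**Figure D3:**
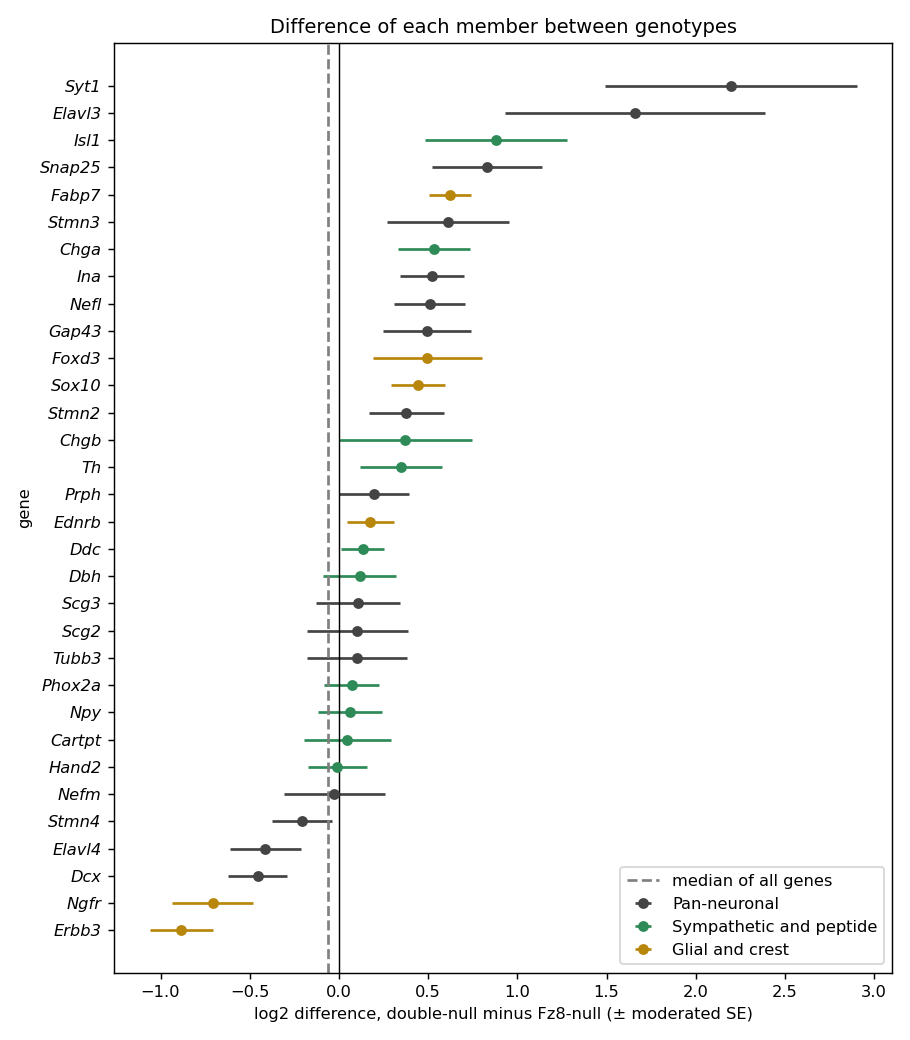
Log2 difference of each member, double-null minus Fz8-null, with limma's moderated standard error (3 arrays a group), coloured by role; the dashed line is the median of all genes. Syt1 at 2.20 and Elavl3 at 1.66 stand highest with wide errors, and Erbb3 at -0.88 and Ngfr at -0.71 stand lowest.

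The genes that define a sympathetic neuron were at or near background in all 6 arrays, so the label of this group is not borne out by its core markers. Phox2a, a homeobox gene needed for noradrenergic neurons, read 3.94, 3.77 and 3.89 in C1 to C3 and 3.87, 4.20 and 3.76 in M1 to M3. The groups overlapped, at a difference of 0.072 (SE 0.16, adjusted p = 0.824), and the sign turned with quantile normalization. Th, the rate-limiting enzyme gene of catecholamine synthesis, read 3.24, 3.16 and 3.25 in C1 to C3 and 3.16, 3.47 and 4.06 in M1 to M3. M3 was the highest of the 6 and M1 tied with the lowest, and the Th difference was 0.35 (SE 0.23, adjusted p = 0.455). Dbh, whose product turns dopamine into noradrenaline, read between 4.23 and 4.57 in Fz8-null and between 4.13 and 4.82 in double-null kidneys. It stood at 0.12 (SE 0.20, adjusted p = 0.782), and this sign turned with quantile normalization. The dimmer Dbh probe sets stood at 0.59 (1459848_x_at) and -0.010 (1450670_at), each with overlapping groups. Hand2, a basic helix-loop-helix factor gene of sympathetic precursors, stood at -0.0093 (SE 0.16), and its sign turned with equal array medians. It ranged from 4.92 to 5.24 in Fz8-null and from 4.90 to 5.26 in double-null kidneys. The dimmer Hand2 probe sets stood at 0.54 (1436041_at) and 0.13 (1443854_at), each with overlapping groups. Ddc, the aromatic amino acid decarboxylase gene, was above background and read 6.41, 6.56 and 6.59 in C1 to C3 and 6.61, 6.68 and 6.67 in M1 to M3. Its groups did not overlap, but the difference was only 0.13 (SE 0.12, adjusted p = 0.576).

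The LIM homeobox gene Isl1, which acts in sympathetic and sensory neurons, read 6.99, 6.07 and 6.04 in C1 to C3 and 6.54, 7.90 and 7.31 in M1 to M3 (1450723_at). C1 lay above M1, and the difference was 0.88 (SE 0.40, adjusted p = 0.335). On its second probe set (1422720_at) all 3 double-null arrays, at 4.77, 5.43 and 5.23, were above the Fz8-null arrays, at 4.49, 4.49 and 4.25. Chromogranin A (Chga), a dense core granule protein gene, read 5.36, 4.96 and 5.24 in C1 to C3 and 5.68, 6.06 and 5.41 in M1 to M3. The groups did not overlap, M3 lay only just above C1, and the difference was 0.53 (SE 0.20, adjusted p = 0.317). Chromogranin B (Chgb) read 4.97, 4.74 and 5.10 in C1 to C3 and 4.86, 6.22 and 4.84 in M1 to M3. M2 alone stood out, and the Chgb difference of 0.37 (SE 0.37, adjusted p = 0.610) turned to -0.082 without M2. The neuropeptide genes had overlapping groups. Npy, made by most sympathetic neurons, read 7.65, 7.54 and 7.45 in C1 to C3 and 7.40, 7.47 and 7.96 in M1 to M3, a difference of 0.059 (SE 0.18, adjusted p = 0.876) that turned to -0.11 without M3. Cartpt stood at 0.048 (SE 0.24, adjusted p = 0.930), and its sign turned with quantile normalization. As a group the sympathetic and peptide genes had a median difference of 0.12, with 9 of 10 above 0 (6 of 10 after quantile normalization) and 2 of 10 without overlap, near the 18.9% of all genes. The median was 0.26 without M1 and 0.036 without M2.

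A cyclic AMP response element, with the full palindrome TGACGTCA, stood in the promoter window of 5 members, and their sequences are shown because it recurs in genes of an enzyme, of granule proteins and of a peptide in the list. It was found in 5 of 24 members with a window (20.8%) and in 2.03% of all genes, on either strand. The members chosen are not random genes, and no test was made of this share. The stretches are from RefSeq (GRCm38.p6), 5′ to 3′ on the gene's strand, with the palindrome in capitals. They are chr7:142899996-142900096 (minus strand) for Th, chr2:132781524-132781624 (plus) for Chgb, chr1:79440040-79440140 (minus) for Scg2, chr13:99900741-99900841 (minus) for Cartpt and chr4:99656049-99656149 (plus) for Foxd3.
Th: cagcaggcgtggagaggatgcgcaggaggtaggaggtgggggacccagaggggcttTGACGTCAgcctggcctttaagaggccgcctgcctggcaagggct
Chgb: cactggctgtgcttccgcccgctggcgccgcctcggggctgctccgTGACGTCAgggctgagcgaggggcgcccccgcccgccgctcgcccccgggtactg
Scg2: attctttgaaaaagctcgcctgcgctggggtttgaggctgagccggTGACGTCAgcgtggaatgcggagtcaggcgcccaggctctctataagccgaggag
Cartpt: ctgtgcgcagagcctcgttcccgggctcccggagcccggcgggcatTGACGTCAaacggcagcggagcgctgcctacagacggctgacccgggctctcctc
Foxd3: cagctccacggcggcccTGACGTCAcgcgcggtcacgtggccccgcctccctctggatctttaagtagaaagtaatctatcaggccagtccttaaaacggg
The palindrome begins 45 bases before the start in Th, 72 in Chgb, 68 in Scg2, 112 in Cartpt and 233 in Foxd3. In the arrays these 5 genes had overlapping groups, with differences between 0.048 (Cartpt) and 0.49 (Foxd3), and M2 was the highest or second highest array in each. That is not particular to them, since M2 was the highest array in 20 of all 32 members and in 6 of the 9 with a mean under 5. The shorter letters TGACG, which the full palindrome contains, was found in 12 of the 24 members and 23.0% of all genes. The letters ACAAAG, which Sox factors bind, stood in 5 of 24 members and 21.0% of all genes, and the homeodomain core TAATTA in 3 of 24 and 6.12%. Of the RE1 element, which the neuronal repressor REST binds, the left part TTCAGCACC stood in 1 member (Scg2; 0.433% of all genes) and the right part of the RE1 consensus in 0 of 24 (0.167% of all genes).

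The glial and crest genes divided into members that lay higher and members that lay lower, with 4 of 6 without overlap (2 higher, 2 lower), against 18.9% of all genes (6.68% higher, 12.2% lower). Fabp7, a brain fatty acid binding protein gene of radial glia and Schwann cell precursors, read 7.28, 7.21 and 7.22 in C1 to C3 and 7.93, 7.88 and 7.77 in M1 to M3 (1450779_at). All double-null arrays were above the Fz8-null ones and both groups were tight, and the difference was 0.62 (SE 0.12, adjusted p = 0.299, the smallest of the 32 members). Sox10, a transcription factor gene that marks migrating crest and glia, read 5.15, 4.83 and 5.11 in C1 to C3 and 5.30, 5.58 and 5.53 in M1 to M3 (1424985_a_at). Its groups did not overlap, at a difference of 0.44 (SE 0.15, adjusted p = 0.314), and its other probe sets stood at 0.07 and 0.65 with overlap. The crest regulator gene Foxd3 was near background and read 2.93, 3.22 and 2.85 in C1 to C3 and 2.93, 4.15 and 3.40 in M1 to M3, a difference of 0.49 (SE 0.31, adjusted p = 0.428). Ednrb, the endothelin receptor gene needed by enteric crest and pigment cells, read 9.74, 9.73 and 9.81 in C1 to C3 and 10.07, 9.78 and 9.95 in M1 to M3. M2 lay within the Fz8-null range, and the difference was 0.18 (SE 0.13, adjusted p = 0.498).

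Erbb3 and Ngfr lay lower. Erbb3, the neuregulin receptor gene that Schwann cell precursors need and that epithelia also use, read 9.36, 9.79 and 9.61 in C1 to C3 and 8.67, 8.49 and 8.95 in M1 to M3 (1434606_at). The lowest Fz8-null array was above the highest double-null array, and the difference was -0.88 (SE 0.18, adjusted p = 0.313). Without M3 it was -1.01 (adjusted p = 0.0139). The other Erbb3 probe set (1452482_at), at 2.81 to 3.30 in all 6 arrays, was near background and stood at 0.0073 with overlap, and with the mean of both probe sets the difference was -0.44 (adjusted p = 0.297). Ngfr, the low-affinity neurotrophin receptor gene, read 7.84, 7.36 and 7.45 in C1 to C3 and 6.61, 6.65 and 7.27 in M1 to M3 (1454903_at). The groups did not overlap, although M3 lay close to C2, and the difference was -0.71 (SE 0.23, adjusted p = 0.314). The other 2 Ngfr probe sets also separated the groups, at -0.40 (1450177_at) and -0.27 (1421241_at). Without M3 the Ngfr difference was -0.92 (adjusted p = 0.0199), and Fabp7 stood at 0.67 (adjusted p = 0.0175). The other members called without M3 were Syt1, Elavl3, Snap25, Ina and Chga. Over all the alternatives run, the adjusted p of these 8 genes ran from 0.00222 (Syt1, Erbb3 and Fabp7, with array weights) to 0.997 (Elavl3, with the B1 covariate, among others).

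Averaged over the list, each double-null array had its own profile. Against the Fz8-null mean, the pan-neuronal genes lay at 0.33 (M1), 0.80 (M2) and 0.11 (M3), with the Fz8-null arrays between -0.078 and 0.14. The sympathetic and peptide genes lay at -0.021, 0.56 and 0.23 in the same order, and the glial and crest genes at -0.11, 0.061 and 0.12. The pan-neuronal mean in M1 was carried by few genes, with Syt1 at 2.86 and Elavl3 at 2.26 there. The median deviation of the pan-neuronal genes was 0.092, 0.55 and 0.22 in M1 to M3, with the Fz8-null arrays between -0.11 and 0.17. M2 was the highest of the 6 arrays in 20 of 32 members, against 18.2% of all genes. It stood above every Fz8-null array in 24 of 32, against 28.0% of all genes, whereas M1 did so in 10 of 32 (27.3% of all genes) and M3 in 18 of 32 (27.0%).

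**Figure D4:**
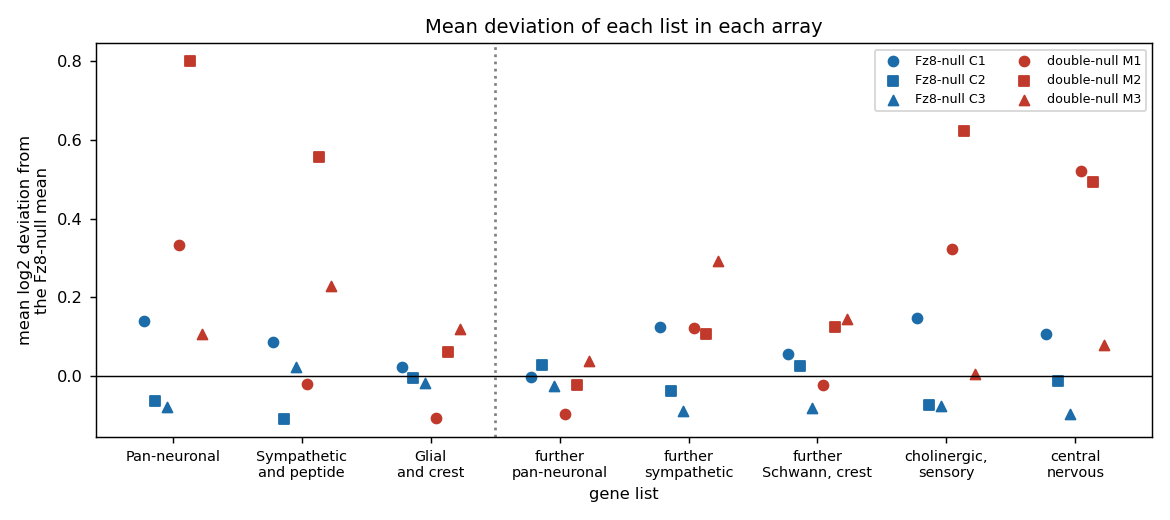
Mean log2 deviation of each list from the mean of the Fz8-null arrays, for each Fz8-null (blue) and double-null (red) array; the 3 lists left of the dotted line hold the 32 members and the others are further neural genes. M2 is highest for the pan-neuronal genes at 0.80 and the sympathetic and peptide genes at 0.56. It is also highest for the cholinergic, enteric and sensory genes, at 0.62. The central nervous system genes lie at 0.52 in M1 and 0.49 in M2. For the further sympathetic and the further Schwann and crest genes M3 is highest, at 0.29 and 0.14. The further pan-neuronal genes lie between -0.096 and 0.040 in all arrays.

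Further neural genes from 5 other lists were mixed, with medians on both sides of 0. Of 23 further pan-neuronal genes measured, 9 lay higher and 14 lower, with a median difference of -0.022. Their genes of smallest p were Kif5c, a kinesin gene, at -0.44, and Nsg1, an endosomal protein gene of neurons, at -0.39 (adjusted p = 0.314 for each). Of 12 further sympathetic and chromaffin genes, 7 lay higher, with a median of 0.14; Slc6a2, the noradrenaline transporter gene, stood at 0.42 and Penk, the proenkephalin gene, at 0.99. Of 11 further Schwann and crest genes, 4 lay higher, with a median of -0.17. Tfap2a, a crest transcription factor gene that kidney epithelium also makes, stood at -0.61, and S100b, a glial calcium-binding protein gene, at 0.67. Cholinergic, enteric and sensory genes (12 measured, 10 of them with a mean under 5) had a median of -0.016, with Pou4f1, a sensory neuron factor gene, at 1.78 and Chat, the acetylcholine synthesis gene, at 1.34. Central nervous system genes (11 measured, 10 with a mean under 5) had a median of 0.12, with Otx2, a forebrain factor gene, at 1.40 and Lhx2 at 0.59. Otx2 read 4.24, 3.87 and 3.93 in C1 to C3 and 5.56, 6.29 and 4.38 in M1 to M3, with M1 and M2 high as in Syt1. Pou4f1 read 5.87, 4.66 and 4.92 against 6.53, 8.65 and 5.63. In the 5 lists 0 genes were called by limma, and 14 of 69 had an unadjusted p under 0.05, against 15.3% of all genes.

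The identity of the samples and the markers of other cells were checked on the same arrays. Fzd4 fell by 6.13 on the log2 scale in double-null kidneys (adjusted p = 0.00318; exact two-sided permutation p = 0.1, the smallest that 3 against 3 arrays allow), from 10.84 to 4.71. Fzd8 lay near background in both genotypes, with means of 3.98 (Fz8-null) and 3.69 (double-null). All 11 measured kidney identity genes had a mean above 5, with Ret at -1.11 and Gata3 at -0.38 and a median of -0.21. Of these 11, 10 lay lower and 1 higher in double-null kidneys. In 5 of the 11 the groups did not overlap, all of them lower, against 12.2% of all genes. Liver transcripts lay higher, most of all in M2 and M3 (mean deviations of 0.72, 3.16 and 3.43 for M1 to M3; 8 of 8 higher; median 2.83; Afp 3.22, Alb 3.63). Of 8 endothelial genes, 6 lay lower and 2 higher (median -0.43; Kdr -0.80, Esam -0.61; Tek 0.19 and Cldn5 0.045 were the higher ones), with mean deviations of -0.37, -0.76 and 0.0039 in M1 to M3. Of 9 adrenal cortex genes, which could mark adrenal tissue with its chromaffin cells, 6 lay higher and 3 lower, with a median of 0.09. Mc2r, the ACTH receptor gene, stood at -0.58, Star at -0.75, and Nr5a1 was near background at 3.79 to 4.14. The list lay between -0.17 and 0.16 from the Fz8-null mean in the double-null arrays. Ureter mesenchyme and smooth muscle genes had a median of 0.08, with Myocd at 1.19 and Myh11 at 0.88. No gene of these lists was called, and their part in the differences of the neural genes was not tested.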

How the data were processed

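The authors deposited 1 table of log2 probe-set intensities, normalized between arrays with RMA per the submitters' processing notes (version not given in the sources used here), and its values were used as they were. Of 45101 probe sets, 64 controls were set aside. Of the 45037 tested, 34945 carried 1 gene in the platform annotation, 932 several and 9160 none, and each of 18193 genes was represented by its probe set of highest mean. The groups were compared with limma 3.58.1 under R 4.3.3 (lmFit, eBayes; two-sided; Benjamini-Hochberg over all genes at 0.05), tested on simulated data. Arrays have no read depth, and their number limits the precision. SE is the moderated standard error of limma. The members and lists were chosen with earlier results of these data known. Named genes were all members, Fzd4, Fzd8 and, of each further list, the genes past the threshold or otherwise the 2 of smallest p. Motifs were searched on both strands of RefSeq promoter windows, which held 24 of the 32 members. Alternatives were quantile normalization, equal array medians, the mean of all probe sets, eBayes with trend and robust settings, ordinary least squares, array weights, replicate number as a block, a minimum mean of 6, an adjusted p of 0.1, leaving out each array and, chosen after seeing the data, the B1 repeat signal as a covariate. Deviations from the group means correlated at 0.17, -0.14 and 0.090 between arrays of the same number, so the numbers were not taken as pairs.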

Additional observations from a re-analysis of the deposited data

How the results depend on the processing

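Of the 32 members, 20 kept their direction in every alternative run and 12 did not. Leaving out single arrays gave 2 to 3292 genes and 0 to 8 members called (8 without M3), 12 to 18 members without overlap (18 without M1, against 25.9% of all genes; 13 without M3, against 53.4%), where fewer arrays overlap less by construction, medians of 0.12 to 0.34 for all members, 0.15 to 0.46 for pan-neuronal, 0.036 to 0.26 for sympathetic and peptide and 0.21 to 0.32 for glial and crest genes and a Fzd4 difference of -6.42 to -5.71, not called without C1 or C3 (adjusted p = 0.0635 and 0.0507). It gave ranges of -0.23 to 0.27 for Nefm, -0.095 to 0.37 for Scg2, -0.20 to 0.23 for Cartpt, -0.054 to 0.39 for Tubb3, -0.12 to 0.29 for Scg3, -0.13 to 0.095 for Hand2, -0.11 to 0.17 for Npy, -0.056 to 0.16 for Phox2a, -0.046 to 0.30 for Dbh and -0.082 to 0.61 for Chgb. Quantile normalization turned Tubb3 to -0.011, Scg2 to -0.071, Phox2a to -0.11, Dbh to -0.042 and Cartpt to -0.077, equal medians turned Nefm to 0.029 and Hand2 to 0.046, and the mean of all probe sets turned Hand2 to 0.22 with 1 gene called. Array weights, which gave M3 a weight of 0.21 and M1 one of 3.93, called 7576 genes and 16 members, moved the glial and crest median to 0.15 and Fzd8 to -0.58 (adjusted p = 0.0332), and turned Tubb3 to -0.45, Dbh to -0.19, Npy to -0.094 and Cartpt to -0.13. With the replicate block 3 genes and 0 members were called, and no call of a member changed. An adjusted p of 0.1 gave 11 genes and 0 members, and least squares without moderation gave 1 gene and 0 members, with Fzd4 at -6.13 not called (adjusted p = 0.254). The B1 covariate gave 3 genes, lowered Syt1 to 0.39 and Snap25 to 0.16, and turned Elavl3 to -0.19, Stmn4 to 0.039, Nefm to 0.36, Scg2 to -0.53, Scg3 to -0.34, Phox2a to -0.16, Chgb to -0.23, Cartpt to -0.24, Fzd8 to 0.030, Chat to -0.036 and Myh11 to -0.092. The causes were not tested.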

Other observations

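Genes of signals that guide or sustain peripheral neurons were described as a further list. Of 9 measured, 5 lay higher and 4 lower in double-null kidneys, with a median difference of 0.015 and groups that overlapped in all 9. Bdnf, a neurotrophin gene, read 4.55, 4.10 and 3.70 in C1 to C3 and 5.40, 5.67 and 4.33 in M1 to M3, a difference of 1.02 (adjusted p = 0.317) with M1 and M2 above the other 4 arrays. Ece1, the endothelin-converting enzyme gene, stood at -0.37 (adjusted p = 0.345).

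M1 and M2 both stood above the other 4 arrays in 14 of the 69 genes of the 5 further neural lists (20.3%), against 16.5% of all genes. The values of 3 of them follow as examples, chosen after their values were seen, and do not stand for their lists. The median differences of those lists were -0.17 (Schwann and crest, Sox2), 0.12 (central nervous system, Slc17a6) and -0.016 (cholinergic, enteric and sensory, Neurod1). All 3 genes had a mean under 5, at 4.46 for Sox2, 3.05 for Slc17a6 and 4.24 for Neurod1. Sox2, a transcription factor gene of neural progenitors and glial precursors, read 3.75, 3.23 and 2.83 in C1 to C3 and 6.35, 7.10 and 3.48 in M1 to M3, a difference of 2.38 (adjusted p = 0.315). Slc17a6, a vesicular glutamate transporter gene, read 4.71 and 3.95 in M1 and M2 and between 2.12 and 2.74 in the other 4 arrays (adjusted p = 0.363). Neurod1, a neuronal differentiation factor gene, read 5.61 and 4.75 in M1 and M2 and between 3.45 and 4.08 in the others (adjusted p = 0.376).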
